A study of Mus musculus with 20 samples.

Results

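Transcript levels of 10 genes of the Notch pathway were followed through tumors and tumor cell lines that lacked or kept cathepsin D, a lysosomal aspartic protease encoded by Ctsd. The genes were chosen by name out of 45706 genes in the count files: the receptors Notch1, Notch2, Notch3 and Notch4, the ligands Jag1, Jag2 and Dll1, and the target genes Hes1, Hey1 and Nrarp. All 10 were found by their Ensembl identifiers. Tumors came from 18-week-old PyMT mice, which carry the polyoma middle T oncogene and develop mammary carcinomas, and comprised 4 control tumors and 4 MMTV-cre;Ctsd-/- tumors. MMTV-cre deletes Ctsd in the mammary epithelium, so that stromal cells of these tumors keep the gene. A Ctsd+/+ and a Ctsd-/- cell line from PyMT tumors were kept in medium with 1% fetal calf serum (FCS) for 10 days (1% FCS) or for 12 weeks (1% FCS LT, long-term), with 3 samples in each of the 4 groups. There was 1 spontaneously immortalized line per genotype, so genotype and line cannot be told apart, and p-values over cell samples measure the spread between cultures of 1 line.

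Notch receptors are single-pass membrane proteins that are activated by Jagged and Delta-like ligands on a neighboring cell. ADAM proteases and γ-secretase then release the intracellular domain, which enters the nucleus and acts with the DNA-binding protein Rbpj on target genes, among them the Hes and Hey repressors and Nrarp, a feedback inhibitor of the pathway. In the mammary gland Notch signaling takes part in the luminal lineage choice, and Notch4 and Jag1 are also known from blood vessels.

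Read counts assigned to genes ranged from 49725437 to 64291587 per tumor and from 33622831 to 40239762 per cell sample. Levels are given in CPM, the count divided by the TMM-scaled size of the library, with tumors and cells scaled separately. Ctsd itself was at 1860, 2617, 1781 and 2532 CPM in the control tumors and at 797, 360.2, 1295 and 1233 CPM in the MMTV-cre;Ctsd-/- tumors. In 1% FCS it was at 4199, 2858 and 1267 CPM in Ctsd+/+ cells and at 192, 141 and 131 CPM in Ctsd-/- cells, and in 1% FCS LT at 1627, 1667 and 1895 CPM against 123, 114 and 151 CPM. Every Ctsd-/- sample was thus below every sample of its control group. Control and MMTV-cre;Ctsd-/- tumors were sequenced in different runs, so genotype and run cannot be told apart in the tumors. The cells spread over 3 runs that each hold both genotypes, with 8 of the 12 samples in a shared run. Another run holds only samples in 1% FCS, and the remaining run only samples in 1% FCS LT. Run and culture time are therefore partly confounded. Control tumor 4 stood apart in its dependence on transcript length. Deviations were taken on the log2 scale from the median of each gene over all tumors. Its genes under 2 kb deviated by a median of 0.30 and its genes of 8 kb or more by -0.51, against -0.11 to 0.13 in every other tumor and length class.

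The promoters of Nrarp, Notch3 and Jag1 are shown because these genes had the largest differences between cell groups among the members with a RefSeq entry in the sequence table (GRCm38.p6). Entries were found for 8 members, and Hes1 and Hey1 are named only. Each line gives the 250 bases before the start site on the strand of the gene, at chr2:25180508-25180757 (+) for Nrarp, chr17:32166891-32167140 (-) for Notch3 and chr2:137116521-137116770 (-) for Jag1. Capitals mark letters that match one of the motifs searched on both strands, the Rbpj core TGGGAA, the E-box CACGTG and the N-box CACNAG bound by Hes proteins.
Nrarp: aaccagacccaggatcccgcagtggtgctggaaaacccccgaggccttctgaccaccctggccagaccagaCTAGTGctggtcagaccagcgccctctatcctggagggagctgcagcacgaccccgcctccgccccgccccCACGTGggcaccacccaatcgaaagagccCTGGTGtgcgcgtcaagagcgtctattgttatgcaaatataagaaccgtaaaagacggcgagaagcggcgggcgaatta
Notch3: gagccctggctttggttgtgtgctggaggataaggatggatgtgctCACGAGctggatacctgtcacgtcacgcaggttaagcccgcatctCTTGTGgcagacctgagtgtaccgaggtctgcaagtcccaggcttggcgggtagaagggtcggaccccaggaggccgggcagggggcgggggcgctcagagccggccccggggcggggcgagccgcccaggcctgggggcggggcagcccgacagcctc
Jag1: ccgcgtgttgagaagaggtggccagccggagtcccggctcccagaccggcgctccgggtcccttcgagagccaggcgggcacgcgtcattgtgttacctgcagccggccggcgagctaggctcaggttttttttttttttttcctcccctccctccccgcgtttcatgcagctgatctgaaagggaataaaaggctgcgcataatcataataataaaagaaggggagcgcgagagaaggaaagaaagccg
Nrarp held 1 E-box, at -108, and 2 N-boxes, at -179 and -79. Notch3 held 2 N-boxes, at -204 and -159, and Jag1 held none of the 3 motifs. The start site of the Notch3 entry lies upstream of the gene in the GENCODE M21 annotation, which begins at 32166852 on the - strand. Its first transcribed bases were in no GENCODE transcript, so the 2 positions hold for the RefSeq start only. Over all 32851 promoters of 300 bases (250 before and 50 after the start), 7.15% held the E-box, 42.5% the N-box and 25.6% the Rbpj core. The Rbpj core was in 0 of the 8 members' windows, which says only that these letters are not in these bases.

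Levels of different genes were compared per kilobase of exon. In Ctsd+/+ cells in 1% FCS the 4 receptors summed to 56.4 ± 17.1 CPM per kb (SD, n = 3), of which Notch2 made up 65.4%. After 12 weeks the sum was 93.5 ± 15.7 CPM per kb, and Notch3 had become the main receptor transcript with 60.2%, up from a share of 14.6%. Ctsd-/- cells had sums of 37.3 ± 7.65 and 37.4 ± 8.87 CPM per kb in the short and the long culture. There Notch2 led with 46.5% and 47.9%, followed by Notch1 with 40.9% and 37.2%, and Notch3 held 12.3% and 14.3%. The 3 ligands summed to 50.5 ± 12.5 CPM per kb in Ctsd+/+ cells in 1% FCS, 90.3% of it Jag1, and to 15.3 ± 0.613 CPM per kb in 1% FCS LT, where Jag2 held 49.2% and Jag1 27.0%. In Ctsd-/- cells the ligand sums were 27.5 ± 5.02 and 29.2 ± 2.12 CPM per kb, with Jag1 at 53.1% and 45.7%. In tumors the receptors summed to 11.8 ± 6.22 CPM per kb in controls and 16.4 ± 1.71 CPM per kb in MMTV-cre;Ctsd-/- tumors (SD, n = 4). Shares there depended on the form of the counts. With counts regardless of strand Notch1 held 24.8% and 24.4%, Notch2 33.9% and 37.3% and Notch3 39.4% and 35.4%. With the sum of both strands, chosen after the data were seen, Notch1 held 39.6% and 37.2%, Notch2 26.9% and 30.4% and Notch3 32.0% and 30.1%, so the order of these receptors in tumors is not given.

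**Figure D1:**
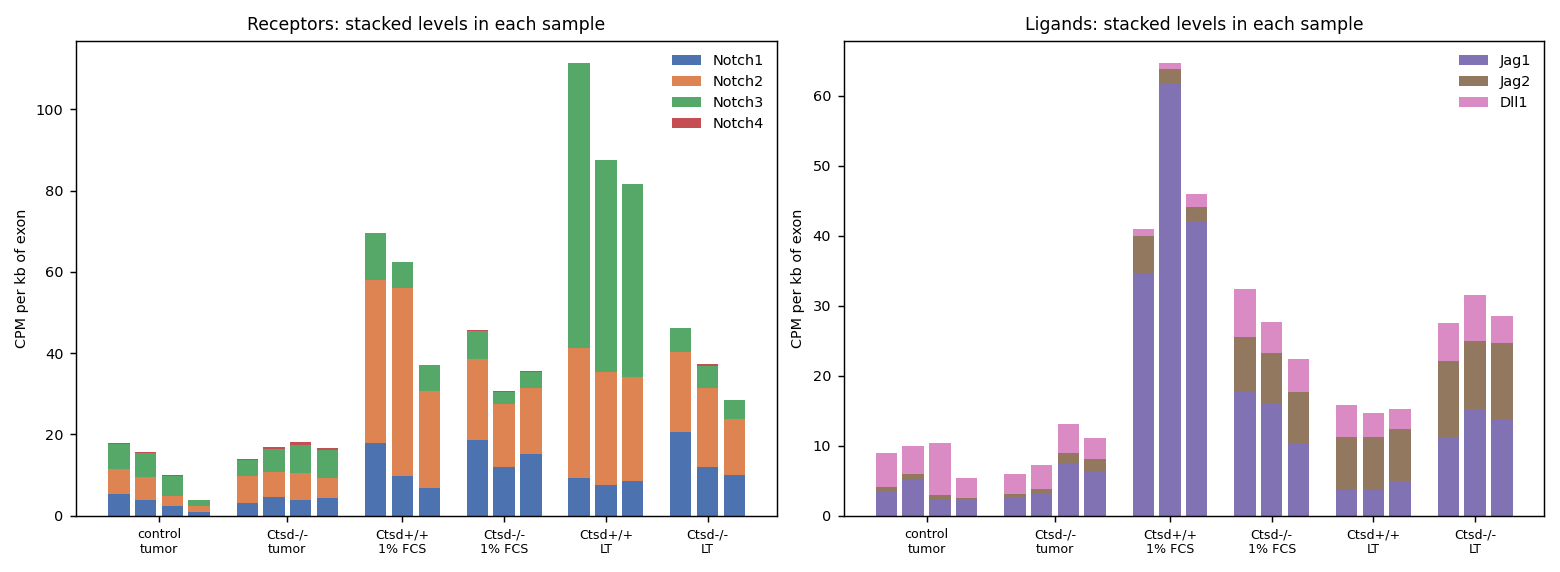
Stacked levels of the 4 receptors (left) and the 3 ligands (right) in CPM per kilobase of exon, with 1 bar per sample and the 6 groups along the x axis. The 3 Ctsd+/+ bars in 1% FCS LT are tall through Notch3, and the 3 Ctsd+/+ bars in 1% FCS are tall through Jag1 among the ligands.

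The first question was how the Ctsd genotype relates to these genes in cells, in the short and in the long culture. In 1% FCS, Nrarp, Dll1, Notch4 and Jag2 were higher in Ctsd-/- cells, and Hey1, Jag1, Hes1 and Notch2 were lower, by edgeR's quasi-likelihood test with Benjamini-Hochberg adjustment over 15178 genes at an adjusted p of 0.05. Hey1 passed the filter on low counts only through Ctsd+/+ cells in 1% FCS, so its calls in cells are no support for a difference. Notch4 passed it only through Ctsd-/- cells, so its calls between genotypes at both times are no support either. With Hey1 and Notch4 counted, the calls are 4 of 10 members in each direction, where 23.5% of all genes tested were called higher and 25.1% lower. The members' median log2 fold change (FC) was -0.19, and that of all genes was 0.00025. After 12 weeks Nrarp, Notch4 and Jag1 were higher and Notch3, Notch2 and Hes1 lower in Ctsd-/- cells, which are 3 of 10 in each direction beside 20.5% of all genes called higher and 19.1% lower, with a median of 0.51 against 0.014. Many genes differed between these lines, so the share of members called is to be read against those percentages.

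Nrarp (chr2:25180758-25183339, + strand, GRCm38) had the largest positive difference between Ctsd-/- and Ctsd+/+ cells among the members in the short culture. Its levels in 1% FCS were 3.24, 3.45 and 5.08 CPM in Ctsd+/+ and 39.4, 29.5 and 43.6 CPM in Ctsd-/- cells. The long-term Ctsd+/+ cells had 9.19, 5.75 and 7.73 CPM of Nrarp and the long-term Ctsd-/- cells 55.3, 50.4 and 34.6 CPM. All 6 Ctsd-/- samples were above all 6 Ctsd+/+ samples, with Ctsd+/+ cells lowest in the short culture. The log2 FC of Nrarp was 3.25 in 1% FCS (SE 0.262, edgeR adjusted p = 2.12e-06) and 2.63 in 1% FCS LT (SE 0.252, adjusted p = 1.13e-05), which are ratios of group means of 9.56 and 6.19. The change of this difference between cultures, -0.62, did not pass the test (SE 0.342, adjusted p = 0.196). An antisense gene, Gm38287, shares 79.43% of the exon bases of Nrarp. At least 99.1% of the stranded counts of Nrarp in cells were on the opposite strand, the count used for all genes of the cells, and counts regardless of strand were 11.5% to 21.9% of the strand sum.

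Hes1 (chr16:30064384-30067796, + strand), a repressor that is induced by Notch in many tissues, moved the other way. It was at 92.1, 64.7 and 63.0 CPM in Ctsd+/+ cells in 1% FCS and at 31.3, 24.6 and 26.9 CPM in Ctsd-/- cells. Long-term values of Hes1 were 38.9, 33.4 and 33.9 CPM for Ctsd+/+ against 28.9, 23.4 and 24.4 CPM for Ctsd-/- cells. The genotypes did not overlap at either time, and the gap was smaller after 12 weeks. Hes1 had a log2 FC of -1.41 (SE 0.161, edgeR adjusted p = 2.69e-05) and -0.47 (SE 0.159, adjusted p = 0.0348), and these values differed by 0.94 (SE 0.224, adjusted p = 0.00803). The call of Hes1 in 1% FCS LT was lost when any 1 of 5 of its 6 samples was left out (each but Ctsd-/- replicate 1), with log2 FC from -0.56 to -0.39.

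Hey1 (chr3:8663359-8667256, - strand), a related repressor, was nearly absent from the cell lines outside 1 group. Ctsd+/+ cells in 1% FCS held 214, 47 and 73 counts of Hey1, or 6.42, 1.44 and 1.91 CPM. The Ctsd-/- cells in 1% FCS held 1, 0 and 1 counts of Hey1, the Ctsd+/+ cells in 1% FCS LT held 5, 7 and 6, and the Ctsd-/- cells in 1% FCS LT held 19, 0 and 1. Over the summed libraries the ratio of Ctsd+/+ to Ctsd-/- cells in 1% FCS was 178, with a 95% counting interval of 49.0 to 1479 that covers counting error only. The size is not determined by 2 counts, and no p is given because Hey1 entered the test through its high group alone. After 12 weeks the genotypes overlapped, and 19 of the 20 counts of Hey1 in Ctsd-/- cells came from replicate 1 (adjusted p = 0.983).

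Notch3 (chr17:32120820-32166852, - strand) separated the long cultures. In 1% FCS LT, Ctsd+/+ cells had 567, 421 and 384 CPM of Notch3 and Ctsd-/- cells 47.1, 43.9 and 36.3 CPM. In 1% FCS, Ctsd+/+ cells had 94.8, 51.5 and 50.6 CPM of Notch3 and Ctsd-/- cells 56.8, 24.5 and 33.1 CPM. The long-term Ctsd+/+ samples thus lay far above the other 9, and the short-term genotypes overlapped. The log2 FC of Notch3 was -3.43 in 1% FCS LT (SE 0.337, edgeR adjusted p = 1.35e-05), a 10.8-fold higher mean in Ctsd+/+ cells. In 1% FCS it was -0.78 (SE 0.311, adjusted p = 0.0555), which did not pass the test here but did by DESeq2 (adjusted p = 0.0232) and limma-voom (adjusted p = 0.0484). Notch3 also passed with run as a covariate (-0.80), within the shared run (-0.82), and without Ctsd+/+ replicate 2 (-0.93), Ctsd+/+ replicate 3 (-0.96) or Ctsd-/- replicate 1 (-1.18). The difference of these values, -2.65, passed the test (SE 0.443, adjusted p = 0.000972).

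Notch2 (chr3:98013527-98150361, + strand) was, per kilobase, the most abundant receptor transcript in 3 of the 4 cell groups and was lower in Ctsd-/- cells. Its values in 1% FCS were 431, 499 and 259 CPM in Ctsd+/+ and 216, 167 and 174 CPM in Ctsd-/- cells. Those of Notch2 in 1% FCS LT were 346, 299 and 276 CPM against 213, 209 and 151 CPM. The genotypes overlapped at neither time. For Notch2 the log2 FC was -1.10 (SE 0.222, edgeR adjusted p = 0.00165) and -0.69 (SE 0.220, adjusted p = 0.0272). The latter call was lost within the shared run and when Ctsd+/+ replicate 1 or 2 or Ctsd-/- replicate 3 of the long culture was left out, with log2 FC of Notch2 from -0.77 to -0.54 without 1 sample.

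Notch1 (chr2:26457903-26516663, - strand) did not pass the test at either time. Notch1 was at 255, 140.2 and 95.8 CPM in Ctsd+/+ and 264, 171 and 217 CPM in Ctsd-/- cells in 1% FCS, where the groups overlapped (log2 FC 0.41, SE 0.335, edgeR adjusted p = 0.336), and passed only without Ctsd+/+ replicate 1 (0.88). In 1% FCS LT it was at 130.4, 109 and 121 CPM in Ctsd+/+ and 292, 172 and 141 CPM in Ctsd-/- cells. These groups of Notch1 did not overlap, with a log2 FC of 0.75 (SE 0.336, adjusted p = 0.0992) that passed with run as a covariate (0.71), within the shared run (0.96) and with no filter on low counts (0.77). Notch4 (chr17:34564268-34588503, + strand), a receptor best known from endothelium, was close to the limit of detection. It had 6, 8 and 8 counts in Ctsd+/+ cells in 1% FCS and 30, 27 and 43 counts in Ctsd-/- cells, and 5, 13 and 10 against 30, 153 and 47 counts in 1% FCS LT. All Ctsd-/- samples were above all Ctsd+/+ samples. Notch4 had a log2 FC of 2.09 (SE 0.642) and 2.96 (SE 0.620). It passed the filter on low counts only through Ctsd-/- cells, so its calls are no support for a difference and no p is given. The first of these calls of Notch4 was lost within the shared run and without Ctsd+/+ replicate 1, Ctsd+/+ replicate 3 or Ctsd-/- replicate 3, with log2 FC from 1.79 to 2.24 without 1 sample. With 1 sample left out, the log2 FC of Notch4 in 1% FCS LT ran from 1.91, without Ctsd-/- replicate 2 (the sample with 153 counts), to 3.36. Endothelial markers were at a summed 1.70 to 9.39 CPM in every cell sample, and Cldn5, which encodes an endothelial tight junction protein, was at 0 in all of them. Their sums overlapped between genotypes in 1% FCS but were 1.70 to 2.31 CPM in Ctsd+/+ and 5.20 to 8.97 CPM in Ctsd-/- cells in 1% FCS LT. Of 4 such genes tested, 1 was called higher in Ctsd-/- cells in 1% FCS and 3 in 1% FCS LT, beside 23.5% and 20.5% of all genes. Cdh5 was at 0.283 to 0.602 CPM in Ctsd-/- cells and at most 0.0523 CPM in Ctsd+/+ cells. It could pass the filter on low counts only through Ctsd-/- cells, so any call of Cdh5 among these is no support. The part of these marker differences in the Notch4 values was not tested.

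The ligand Jag1 (chr2:137081456-137116644, - strand) took opposite directions at the 2 times. Ctsd+/+ cells had 201, 359 and 244 CPM of Jag1 in 1% FCS and 21.3, 21.8 and 29.0 CPM in 1% FCS LT. Ctsd-/- cells had 103.4, 93.9 and 60.2 CPM and 65.5, 88.7 and 79.7 CPM. The Ctsd-/- samples lay below the short-term and above the long-term Ctsd+/+ samples, and their own cultures overlapped. The log2 FC of Jag1 between genotypes was -1.64 in 1% FCS (SE 0.245, edgeR adjusted p = 0.000197) and 1.70 in 1% FCS LT (SE 0.247, adjusted p = 0.000233). The difference of these values was 3.34 (SE 0.348, adjusted p = 3.94e-05).

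Jag2 (chr12:112907819-112929776, - strand) was at 38.1, 15.3 and 15.0 CPM in Ctsd+/+ and 53.9, 49.8 and 50.8 CPM in Ctsd-/- cells in 1% FCS, and at 53.1, 52.2 and 51.4 against 75.7, 68.0 and 76.0 CPM in 1% FCS LT. The groups did not overlap at either time, but only the first difference of Jag2 passed the test, with log2 FC 1.18 (SE 0.282, edgeR adjusted p = 0.00479) against 0.49 (SE 0.277, adjusted p = 0.186). The change between them, -0.69, did not pass (SE 0.393, adjusted p = 0.214), but it did without Ctsd+/+ replicate 1 of the short culture (-1.27), with run as a covariate (-0.83) and within the shared run (-1.28). Within that run the long-term difference of Jag2 also passed (0.45). Dll1 (chr17:15367354-15376872, - strand), a Delta-like ligand, was at 4.20, 3.42 and 7.54 CPM in Ctsd+/+ and 29.1, 18.5 and 19.9 CPM in Ctsd-/- cells in 1% FCS. The long-term values of Dll1 were 19.4, 14.5 and 12.2 CPM against 22.8, 27.7 and 16.3 CPM, where the groups overlapped. For Dll1 the log2 FC was 2.15 (SE 0.319, edgeR adjusted p = 0.00019) and 0.53 (SE 0.303, adjusted p = 0.185), and the change between them was -1.62 (SE 0.434, adjusted p = 0.0152).

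**Figure D2:**
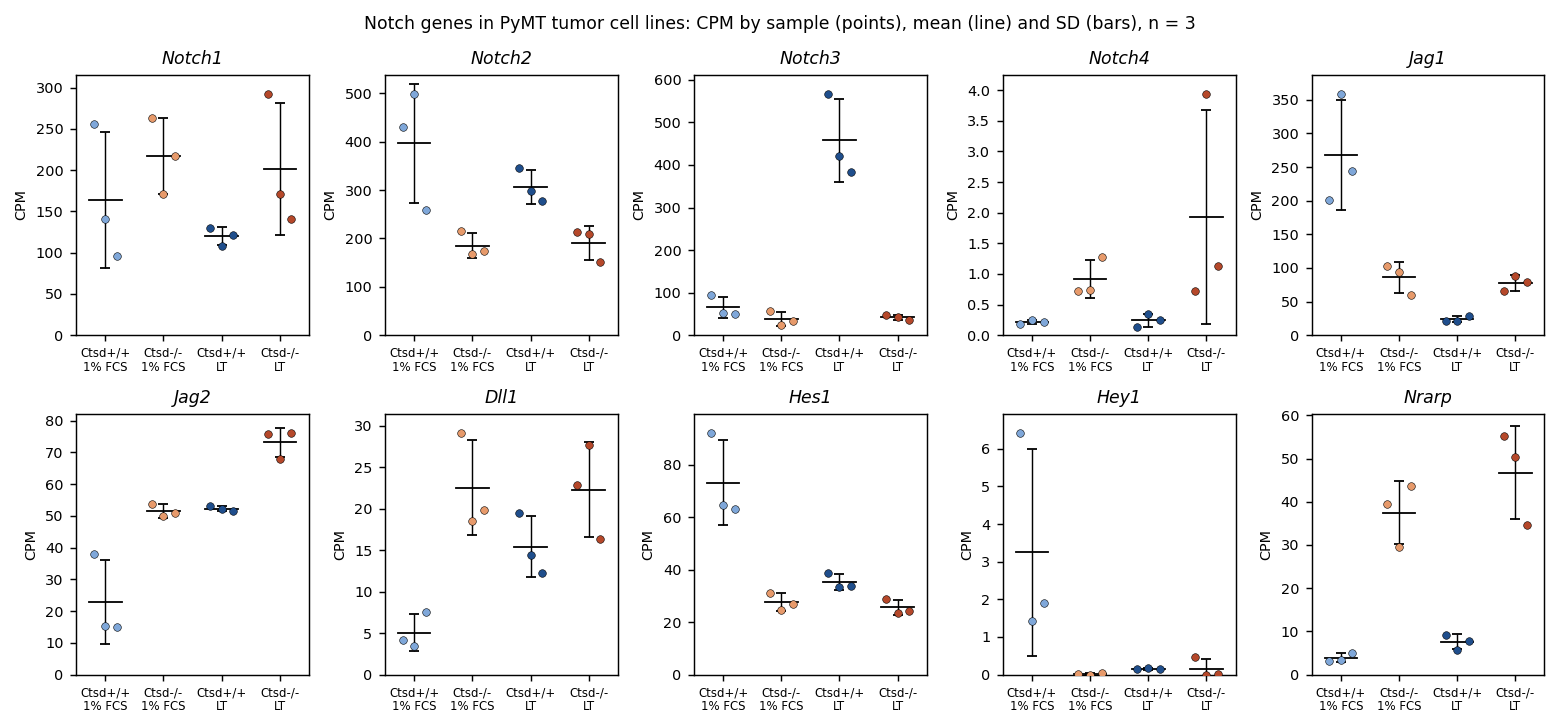
CPM of the 10 genes in the 12 cell samples, 1 panel per gene, with points for samples, lines for group means and bars for SD (n = 3); each y axis is linear and has its own range. All 6 Ctsd-/- samples of Nrarp sit above the Ctsd+/+ samples, Notch3 is high in the long-term Ctsd+/+ samples, and Jag1 spans 201 to 359 CPM in the short-term Ctsd+/+ samples against 21.3 to 29.0 CPM in the long-term ones.

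The next question was what the long culture changed within each line. In Ctsd-/- cells 0 of the 10 members passed the edgeR test between 1% FCS LT and 1% FCS, with adjusted p from 0.337 to 0.991 and 0 members at an unadjusted p of 0.05, and DESeq2 and limma-voom also called 0. Of all genes, 1.57% were called higher and 0.810% lower in this comparison. With the sequencing run as a covariate Notch3 was called (0.65), and within the shared run Jag2 was called (0.51). More of all genes were called there too, 1198 of 15178 with the covariate and 756 of 15166 within that run, against 361 of 15178 without.

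In Ctsd+/+ cells 7 of the 10 members passed the test between the cultures, 4 higher and 3 lower after 12 weeks, where 23.0% of all genes were called higher and 23.4% lower. Hey1 is counted among the 3 lower, but it passed the filter on low counts only through its high group here, so its call is no support. This comparison shares its samples with those between genotypes above, so its values are set beside them and add no independent evidence. Notch3 rose by a log2 FC of 2.80 (SE 0.328, edgeR adjusted p = 3.67e-05), a 6.97-fold higher mean. Dll1 rose by 1.60, Jag2 by 1.20 and Nrarp by 0.94, and the call of Nrarp was lost within the shared run (0.80). For Jag1 the log2 FC was -3.48 (SE 0.264, edgeR adjusted p = 1.56e-06), an 11.2-fold lower mean, and for Hes1 it was -1.05 (SE 0.159, adjusted p = 0.000245). Hey1 had 334 summed counts against 18, a ratio of 20.3 with a counting interval of 12.6 to 34.6. Values of the others were -0.45 for Notch1, -0.37 for Notch2 and 0.21 for Notch4, and none of these 3 passed except Notch2 without Ctsd+/+ replicate 3 of the short culture (-0.60).

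The study's own correction, the genotype difference in 1% FCS LT minus that in 1% FCS, was fitted as an interaction contrast. It was positive for Jag1, Hey1 and Hes1 and negative for Notch3 and Dll1, which are 3 and 2 of 10 members beside 16.1% and 14.1% of all genes. Hey1 is counted here although it passed the filter on low counts only through Ctsd+/+ cells in 1% FCS, so its call is no support. The other 5 did not pass, with adjusted p from 0.196 to 0.630. The contrast of Hey1 rests on 2 summed counts in Ctsd-/- cells in 1% FCS and on 1 replicate of the long culture, so its size is not determined, and its call was lost under limma-voom and without Ctsd-/- replicate 1 of the long culture. That of Dll1 was lost within the shared run, where it was -1.23. The Ctsd-/- samples of Jag1, Notch3, Hes1 and Dll1 overlapped between cultures, and the Ctsd+/+ samples of these 4 genes did not.

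**Figure D3:**
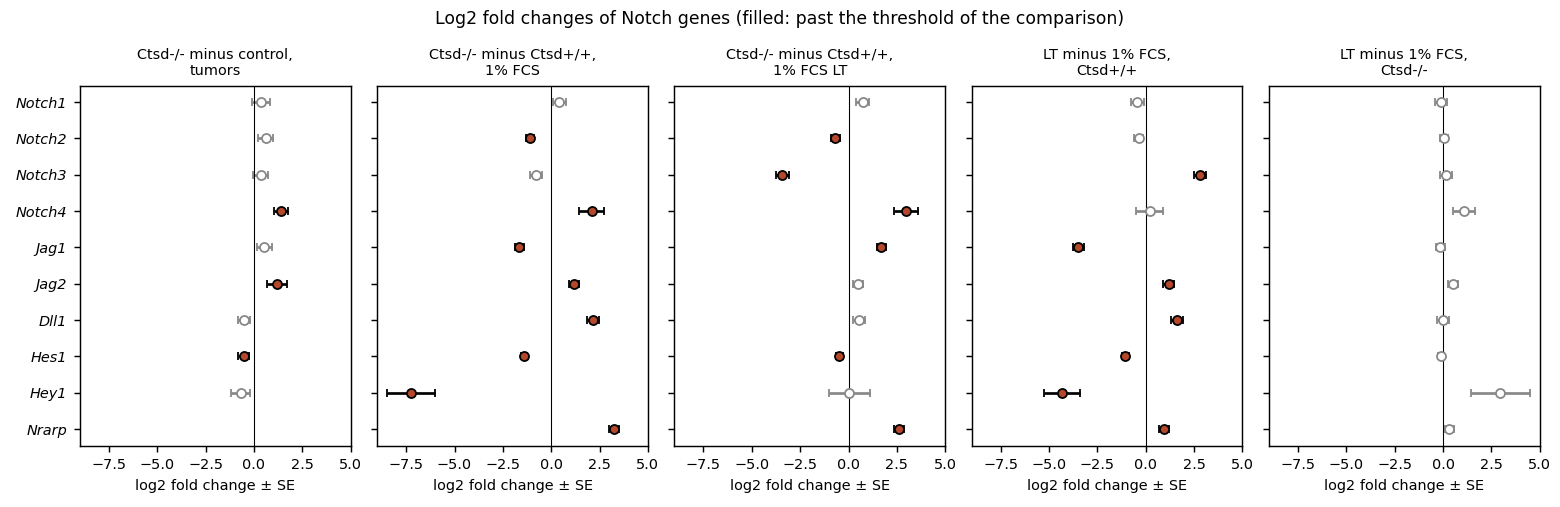
Log2 fold change with SE of the 10 genes (rows) in the tumors and in 4 comparisons of cells (panels); filled points passed the threshold of the comparison, an unadjusted p of 0.1 in tumors and an adjusted p of 0.05 in cells. The right panel, long against short culture of Ctsd-/- cells, holds no filled point, and Nrarp was not tested in tumors. Filled points of Hey1 and Notch4 in cells are no support, since each passed the filter on low counts only through its high groups.

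The cell groups also differed in markers of cell types, and the part of these differences in the Notch genes was not tested. The summed level of 6 fibroblast markers was 626 to 2616 CPM in Ctsd+/+ cells in 1% FCS and 3.03 to 14.9 CPM in the other 9 samples. In those Ctsd+/+ cells the sum was mostly the collagen gene Col1a1, with a mean of 1437 CPM, followed by Col3a1 (107 CPM) and Pdgfra (37.8 CPM). Col1a2 and Dcn had means of only 2.27 and 0.742 CPM there, and Lum was at 0. A sum of 7 pericyte and smooth muscle markers was 186 to 749 CPM in the same Ctsd+/+ samples, 0.513 to 4.87 CPM in 8 of the others and 86.1 CPM in Ctsd-/- replicate 1 in 1% FCS LT. This sum was mostly Pdgfrb, a platelet-derived growth factor receptor gene, with a mean of 468 CPM in Ctsd+/+ cells in 1% FCS and 84.9 CPM in that replicate. The smooth muscle actin gene Acta2 had a mean of 28.2 CPM in Ctsd+/+ cells in 1% FCS, and Cspg4, Myh11, Des and Kcnj8 were under 0.5 CPM. Des, which encodes desmin, was called higher in Ctsd-/- cells, at 0.164 to 0.508 CPM against 0 to 0.0761 CPM in Ctsd+/+ cells. It passed the filter on low counts only through Ctsd-/- cells, so its call is no support for a difference. Ctsd-/- replicate 1 in 1% FCS LT also held 19 of the 20 counts of Hey1 in its group. In the short culture the sum of 6 epithelial markers was 937 to 2060 CPM in Ctsd+/+ and 9580 to 12169 CPM in Ctsd-/- cells, and in the long culture 5376 to 5698 CPM and 6675 to 8856 CPM. All 6 epithelial markers passed the test as higher in Ctsd-/- than Ctsd+/+ cells in 1% FCS, beside 23.5% of all genes. In 1% FCS LT 1 of the 6 was called higher and 1 lower, beside 20.5% and 19.1% of all genes. There Cdh1 was at 392 to 503 CPM in Ctsd-/- and 841 to 1002 CPM in Ctsd+/+ cells. Krt8, Krt18 and Cldn4 were higher in Ctsd-/- cells without overlap, and Epcam and Krt19 overlapped. The Ctsd+/+ cells in 1% FCS were therefore the group with the highest Jag1, Hes1 and Hey1, the highest fibroblast sum (mostly Col1a1) and the lowest epithelial sum.

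In tumors the question was whether loss of Ctsd from the epithelium goes with other levels of the same genes. Of the 10 members 9 passed the filter on low counts. At the study's threshold for tumors, an unadjusted p of 0.1, Notch4 and Jag2 were higher and Hes1 was lower in MMTV-cre;Ctsd-/- tumors. These are 2 of 9 higher and 1 of 9 lower, beside 8.44% and 8.27% of the 18617 genes tested. After Benjamini-Hochberg adjustment in edgeR none of the 9 passed at 0.05, with adjusted p from 0.416 to 0.788, and 0.00537% of all genes did. In bulk tumors, fewer cells of a type and less RNA per cell cannot be told apart.

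Notch4 was at 1.96, 1.45, 1.14 and 1.17 CPM in the control tumors and at 2.51, 2.89, 5.86 and 3.80 CPM in the MMTV-cre;Ctsd-/- tumors. The groups did not overlap, and Ctsd-/- tumors 3 and 4 were highest. Notch4 had a log2 FC of 1.39 (SE 0.369, edgeR adjusted p = 0.416), and its call at the unadjusted threshold stayed when any 1 tumor was left out, with log2 FC from 1.10 to 1.58. The sum of 8 endothelial markers was 120, 145, 74.4 and 91.9 CPM in the control tumors and 104, 134, 377 and 335 CPM in the Ctsd-/- tumors, and 6 of the 8 genes were called higher. Ctsd-/- tumors 1 and 2 had endothelial sums within the control range and Notch4 above it. The part of endothelial content in the level of Notch4 was not tested.

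Jag2 was at 3.62, 5.16, 3.37 and 1.37 CPM in control and 3.16, 4.35, 11.3 and 12.3 CPM in Ctsd-/- tumors. Only Ctsd-/- tumors 3 and 4 were above the controls, and the log2 FC of Jag2 was 1.20 (SE 0.519, edgeR adjusted p = 0.555). The call was lost when either of these tumors was left out, with log2 FC of Jag2 from 0.89 to 1.48 over the left-out tumors. The sum of 5 basal markers was also highest in these 2 tumors, at 883 and 549 CPM, against 150.4 to 454 CPM in the other 6. All 6 adipocyte markers were called higher in Ctsd-/- tumors as well, with sums of 1124 to 11302 CPM against 224 to 2177 CPM, and their part in these levels was not tested. Jag1 was at 20.8, 30.0, 14.1 and 13.7 CPM in control and 15.3, 18.6, 43.1 and 37.2 CPM in Ctsd-/- tumors, and the same 2 tumors were highest (log2 FC 0.54, SE 0.381, edgeR adjusted p = 0.661). Jag1 passed the unadjusted threshold without control tumor 2 (0.81) or Ctsd-/- tumor 1 (0.76).

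Hes1 was at 16.4, 17.2, 17.3 and 25.0 CPM in control and 18.8, 15.9, 8.52 and 9.11 CPM in Ctsd-/- tumors. Ctsd-/- tumors 3 and 4 were lowest, and tumors 1 and 2 lay among the controls. Hes1 had a log2 FC of -0.54 (SE 0.296, edgeR adjusted p = 0.595). The call of Hes1 was lost without any 1 of 6 tumors (each control tumor and Ctsd-/- tumors 3 and 4), with values from -0.77 to -0.38. Hey1 was abundant in tumors, unlike in the cell lines, at 176, 100.6, 174 and 279 CPM in control and 213, 131, 45.1 and 62.9 CPM in Ctsd-/- tumors. The groups of Hey1 overlapped, again with Ctsd-/- tumors 3 and 4 lowest (log2 FC -0.69, SE 0.474, edgeR adjusted p = 0.653). Hey1 passed the unadjusted threshold by limma-voom (-0.87) and without control tumor 2 (-0.89) or Ctsd-/- tumor 1 (-1.21). The sum of 7 luminal markers, mostly the milk protein gene Csn3, was 14850, 17162, 18759 and 24735 CPM in control and 20802, 14690, 8533 and 10394 CPM in Ctsd-/- tumors. The single luminal genes did not share a direction. Prlr was called higher in Ctsd-/- tumors (log2 FC 0.81) and Kit lower (-0.69), both with overlapping groups, and the others were not called. The order of the 8 tumors by Hes1 was the same as their order by the luminal sum. It was the 1 full match among 90 pairings of a member with a marker list, was seen after the values were known, and its part in the Hes1 values was not tested.

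The larger receptors did not pass in tumors. Notch1 ranged from 11.5 to 76.4 CPM in control and from 45.9 to 66.0 CPM in Ctsd-/- tumors (log2 FC 0.37, SE 0.448, edgeR adjusted p = 0.788). The values of Notch2 ran from 17.7 to 65.7 CPM and from 53.7 to 71.8 CPM (0.62, SE 0.385, adjusted p = 0.632), and those of Notch3 from 11.1 to 49.3 CPM and from 32.0 to 55.7 CPM (0.34, SE 0.402, adjusted p = 0.779). The lowest value of Notch1, Notch2, Notch3, Jag1, Jag2 and Dll1 among the controls was that of control tumor 4 each time, the tumor with low levels of long transcripts. Dll1 was at 20.5, 17.1, 31.8 and 11.6 CPM in control and 12.2, 14.5, 17.3 and 12.5 CPM in Ctsd-/- tumors (log2 FC -0.52, SE 0.297, edgeR adjusted p = 0.605). Dll1 passed the unadjusted threshold without control tumor 4 (-0.71) or Ctsd-/- tumor 3 (-0.63), and Notch2 did without control tumor 1 (0.90) or 2 (0.84), by limma-voom (0.79) and with no filter on low counts (0.62).

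Nrarp could not be read from the tumor counts taken regardless of strand, which were 0 to 3 per tumor, because reads shared with the antisense gene Gm38287 are not assigned. The sum of its counts on either strand was 180, 117, 180 and 48 in control and 131, 112, 300.0 and 168 in Ctsd-/- tumors. These sums correspond to 1.89 ± 0.844 CPM of Nrarp in control and 2.55 ± 1.18 CPM in Ctsd-/- tumors (SD, n = 4), with overlapping groups and a log2 FC of 0.33 (SE 0.413, edgeR adjusted p = 0.792). In these unstranded libraries reads of the 2 genes cannot be told apart, and this form of the counts was chosen after the data were seen. Counts of Notch1 regardless of strand were likewise 41.6% to 57.9% of its strand sum in tumors, beside shared exon bases with 0610009E02Rik (7.50% of the exon bases of Notch1) and Gm13568 (2.91%).

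**Figure D4:**
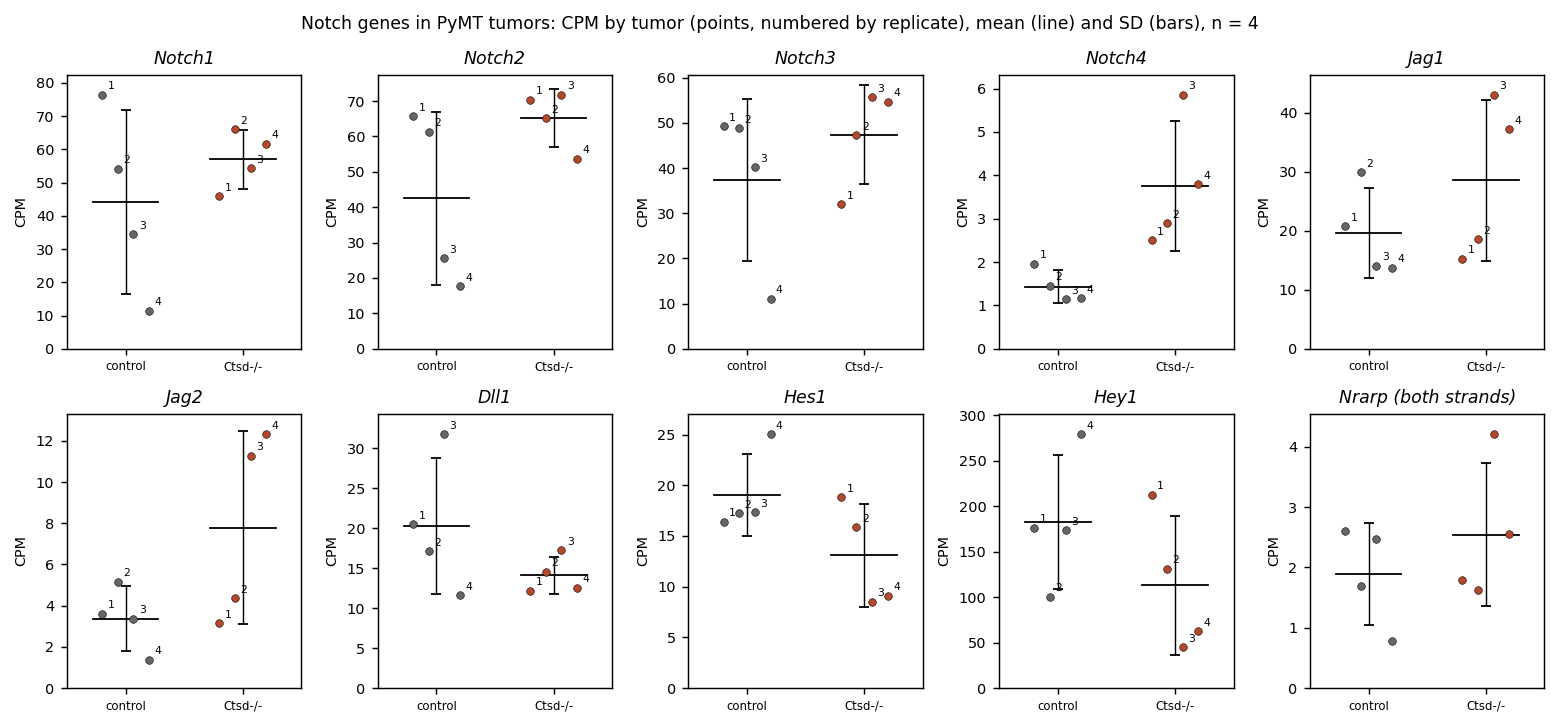
CPM of the 10 genes in the 8 tumors, 1 panel per gene, with points numbered by replicate, lines for group means and bars for SD (n = 4); Nrarp is plotted from the sum of both strands. Notch4 is the gene whose groups do not overlap, and Ctsd-/- tumors 3 and 4 are low in Hes1 and Hey1 and high in Jag1 and Jag2.

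**Figure D5:**
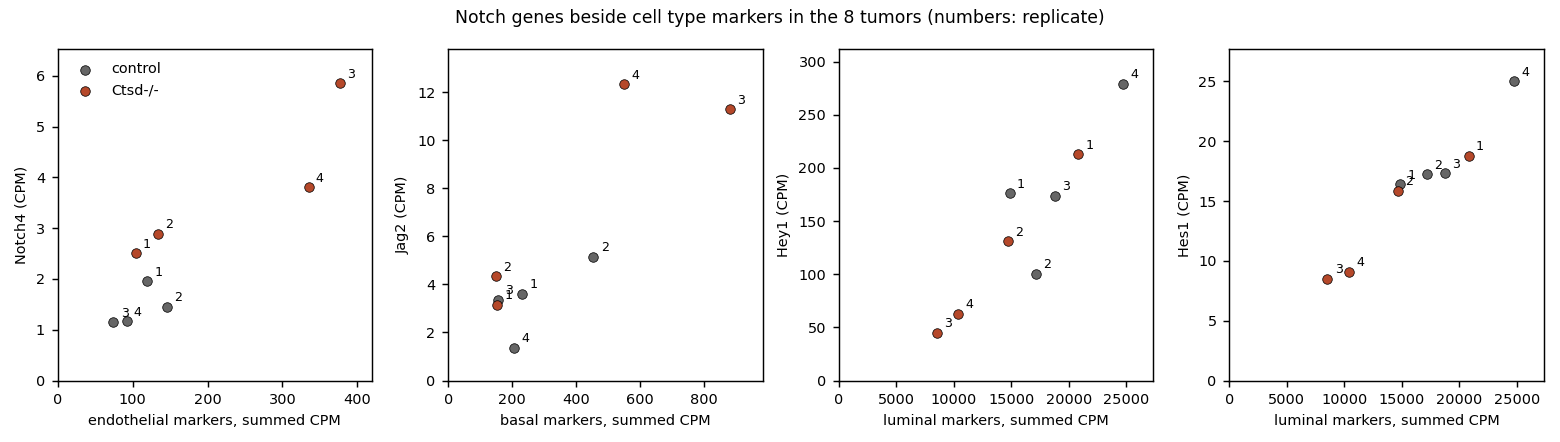
CPM of Notch4, Jag2, Hey1 and Hes1 (y axes) against the summed CPM of endothelial, basal and luminal markers (x axes) in the 8 tumors, numbered by replicate and colored by genotype. Ctsd-/- tumors 3 and 4 lie apart in every panel, and the 8 tumors have the same order by Hes1 and by the luminal sum, which is mostly Csn3.

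The rest of the pathway was described with 6 lists of 66 genes in all. In cells in 1% FCS, 8 of the 58 genes tested were higher and 19 lower in Ctsd-/- cells, with a median log2 FC of -0.057, beside 23.5% of all genes higher and 25.1% lower. After 12 weeks 15 were higher and 11 lower, with a median of 0.061, beside 20.5% and 19.1% of all genes. The DNA-binding partner of the receptors, Rbpj, was higher at both times, with log2 FC 0.97 (SE 0.154, edgeR adjusted p = 0.000307) and 1.16 (SE 0.154, adjusted p = 0.000128). Among genes for receptor sugars, the fringe glycosyltransferase Rfng was lower at both times (-1.45 and -1.63), as was the O-glucosyltransferase Poglut1 (-1.48 and -0.48). Numbl, which encodes a Numb-like adaptor protein, was lower by log2 FC of -1.89 and -1.37, and Numb itself was called lower in 1% FCS LT (-0.74). The γ-secretase subunit gene Aph1b went from -1.24 in 1% FCS to 0.83 in 1% FCS LT, a change of 2.07 (SE 0.238, adjusted p = 7.40e-05).

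Among other target genes the cell cycle gene Ccnd1 was higher at both times (1.98 and 0.88 on the log2 scale), as was Hes6 (0.97 and 0.60). Hey2, a relative of Hey1, was lower in Ctsd-/- cells in 1% FCS (-1.75, SE 0.283, edgeR adjusted p = 0.000356) and higher in 1% FCS LT (1.88, SE 0.325, adjusted p = 0.000766), and the difference of these values was 3.63 (SE 0.430, adjusted p = 9.09e-05). The corepressor genes Tle1 and Tle4 differed in 1% FCS LT in opposite directions, by -1.10 and 1.01. Between the cultures of Ctsd-/- cells 0 of the 58 genes passed, and between those of Ctsd+/+ cells 10 were higher and 17 lower after 12 weeks, beside 23.0% and 23.4% of all genes.

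In tumors 12 of the 62 genes tested were higher at an unadjusted p of 0.1 and 0 lower, beside 8.44% and 8.27% of all genes, with a median log2 FC of 0.13 and no adjusted p under 0.05. Groups did not overlap for the fringe gene Mfng (1.83, SE 0.445, edgeR adjusted p = 0.369) and for the γ-secretase gene Psen2 (0.53, SE 0.183, adjusted p = 0.526). Dlk1 (1.58, SE 0.786) is counted among the 12 and did not overlap either, at 0 to 0.154 CPM in control and 0.182 to 0.323 CPM in Ctsd-/- tumors. It passed the filter on low counts only through the Ctsd-/- tumors, so its call is no support for a difference. Dll4, a Delta-like ligand of blood vessels, was also called (0.91, SE 0.405, edgeR adjusted p = 0.556), with overlapping groups.

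Over the 12 cell samples, the genes with the pattern most like Nrarp among 11337 genes with a mean log2 CPM above 1 were Bcl2, Rapgef3 and Nfasc, with Pearson r of 0.973, 0.972 and 0.972 of log2 CPM. For Notch3 they were Ptprf, Casz1 and Mycbp2 (r = 0.987, 0.979 and 0.977), and for Hey1 they were Stat5b, Meis2 and Mtrf1 (r = 0.972, 0.965 and 0.960). These samples are 4 groups of 2 lines, so such r describe group patterns and carry no test.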

How the data were processed

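RNA was sequenced from 8 tumors and 12 cell samples. The authors trimmed reads with Trimmomatic, mapped them to GRCm38/mm10 with STAR and deposited raw read counts per Ensembl gene for each sample, regardless of strand, on the gene strand and on the opposite strand. Versions and the annotation release are not given in the sources used here. Counts regardless of strand were used for tumors, where 52.8% to 53.7% of stranded counts lay on the opposite strand, and counts on the opposite strand for cells, where 97.1% to 97.3% did. Reads overlapping several genes, left out of the counts, were 7.11% to 15.6% of tumor reads. Gene names and coordinates came from GENCODE M21, which held 45143 of 45706 identifiers.

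Genes were filtered with filterByExpr, scaled by TMM and tested two-sided with edgeR's quasi-likelihood test (edgeR 4.0.16, limma 3.58.1, DESeq2 1.42.0, R 4.3.3), tumors and cells separately, with 1 coefficient per group and Benjamini-Hochberg adjustment over all genes. The study's methods name limma; edgeR was used because the files hold counts, and limma-voom and DESeq2 were alternatives. Thresholds were those of the study. Levels per kilobase used merged exon length, and log2 CPM a prior count of 2. Scripts were tested on simulated data. In the simulated cell samples 1.96% of the calls by edgeR, 3.38% of those by limma-voom and 10.7% of those by DESeq2 were false. Named were Ctsd, all 10 members, up to 3 called and non-overlapping genes per list with the largest fold change, marker genes, and the 3 genes most correlated with each of the 3 members of largest range. Dll4 was named after its values were seen. The members and lists were chosen with earlier results of these data known. Alternatives were other tools, scalings and filters, other strand forms, a replicate block, sequencing run and leaving out each sample.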

Additional observations from a re-analysis of the deposited data

Results flagged for a closer look

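In control tumors the level of Hes1 in tumor 4, 25.0 CPM, stood apart from 16.4 to 17.3 CPM in the other 3, with a gap of 0.891 of the range of the group. It was the 1 such sample in 18 tests of a member in a tumor group, and chance marks about 1 in 20. The same tumor had low levels of long transcripts and the highest luminal marker sum (mostly Csn3).

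The genotype difference changed between 1% FCS and 1% FCS LT for 5 members, by an interaction contrast in edgeR with Benjamini-Hochberg adjustment. The change on the log2 scale was 3.34 for Jag1, 7.29 for Hey1, 0.94 for Hes1, -2.65 for Notch3 and -1.62 for Dll1. The size for Hey1 is not determined, since it rests on 2 summed counts in Ctsd-/- cells in 1% FCS and on 1 replicate in 1% FCS LT that held 19 of 20 counts, and the call was lost without that replicate. Hey1 also passed the filter on low counts only through Ctsd+/+ cells in 1% FCS, so its call is no support.

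Nrarp had 0 to 3 counts per tumor regardless of strand but at least 48 when the counts of both strands were summed, a signal outside the counts used for the tumor comparison.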

How the results depend on the processing

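Of the single-gene values, 380 of those with 1 sample left out and 463 of those under other settings kept direction and side of the threshold. The number of members called in tumors was 3, 5 by limma-voom (with Hey1 and Notch2 added) and 1 to 5 with 1 tumor left out. Of all 18617 genes, 1572 were called higher and 1540 lower, and 1550 and 1300 by limma-voom. With 1 tumor left out these were 980 to 2156 and 827 to 2309, of 19002 to 19231 genes. Between cultures of Ctsd-/- cells the number of members called was 0, and 1 with run as a covariate and 1 within the shared run. All genes called there were 361 of 15178, 1198 of 15178 and 756 of 15166 in turn. Leaving out 1 sample gave 7 to 9 members called between genotypes in 1% FCS, 4 to 6 in 1% FCS LT, 7 to 8 between cultures of Ctsd+/+ cells and 4 to 6 for the interaction. All genes called were then 6228 to 7223, 4823 to 5426, 5980 to 6893 and 3645 to 4843 in this order, of 15487 to 15608 tested. Counts of members in cells can include Hey1 and Notch4, which passed the filter on low counts only through their high groups. Scaling without TMM moved no group mean by over 1 SD. Deviations of same-numbered samples correlated with a mean of -0.134 to 0.254 over pairs of groups and a lowest value of -0.303, so the numbers were not taken as pairs. A replicate block gave 2 members in tumors (without Hes1 and Jag2, with Notch2), 9 in 1% FCS (with Notch3), 7 in 1% FCS LT (with Notch1), 0 and 7 between cultures of Ctsd-/- and Ctsd+/+ cells and 5 for the interaction. With the block, 1105 of all 18617 genes were called higher and 711 lower in tumors. For cells the genes called were 7479, 6170, 397, 7156 and 4719 of 15178 in the same order. The log2 values that follow reversed, all of differences that did not pass, and the cause was not tested. Between genotypes in 1% FCS LT, Hey1 was -1.47 by limma-voom, -0.53 with the block, -0.083 with run as a covariate and -3.35 to 0.60 with 1 sample left out. Between cultures of Ctsd-/- cells with run as a covariate, Notch1 was 0.25, Dll1 0.21 and Hes1 0.064, within the shared run Notch1 was 0.26, Jag1 0.000687, Dll1 0.39 and Hes1 0.025, and with the block Dll1 was 0.0089. With 1 sample left out there, Notch1 ranged from -0.47 to 0.094, Notch2 from -0.045 to 0.19, Notch3 from -0.083 to 0.56, Jag1 from -0.34 to 0.016, Dll1 from -0.20 to 0.21 and Hey1 from -0.43 to 3.52. Between cultures of Ctsd+/+ cells Notch1 was 0.030 with run as a covariate, 0.019 within the shared run and -0.72 to 0.021 with 1 sample left out, and Notch4 -0.11 to 0.50. For the interaction, Notch1 ranged from -0.13 to 0.61 and Notch4 from -0.19 to 1.26. Depth limits Hey1 and Notch4 in cells and Nrarp in tumors.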
